A study of Caenorhabditis elegans with 40 samples.

Results

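Wild-type C. elegans that carried a balancer were compared with each other at the RNA level, balancer against balancer. A balancer is a rearranged chromosome that suppresses crossing over, so that a mutation on the opposite homolog stays heterozygous, and its visible markers let heterozygous animals be picked. It therefore brings inserted markers, marker alleles and a strain history of its own into every animal that carries it, the wild-type controls included. mIn1 rearranges chromosome II, marks animals with GFP and makes homozygotes dumpy. tmC20 rearranges chromosome I and carries unc-14(tmIs1219) and dpy-5(tm9715) with a fluorescent pharyngeal marker, and tmC5 rearranges chromosome IV and carries F36H1.3(tmIs1220).

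The comparison used all wild-type columns of the RNA table. There are 12 of them, and 11 were distinct: 4 of mIn1, 3 of tmC20 and 4 of tmC5, of 17 distinct RNA libraries in the series. The tmC20 columns headed replicate 2 of day 3 and of day 4 hold identical counts and were used once. All were untreated whole animals, wild type over the balancer, grown on E. coli. By the labels the day 3 animals were L4 larvae and the day 4 animals pregravid adults, except that replicate 2 of day 4 is labelled L4 for tmC20 and tmC5, and both ages were pooled. The mutants, set beside the controls for recurrence, were day 4 animals, labelled L4 except for 1 mIn1 replicate with no stage, with 2 distinct libraries for each balancer: rpl-5[cc5998] or rpl-33[cc2558] over mIn1, rps-10[cc2557] over tmC20 and rps-23[cc5994] over tmC5. The columns headed rpl-5 and rpl-33 hold identical counts, and which genotype they are cannot be said. The study's methods describe the replicates as biologically independent, while the labels do not say which population each library came from, so p values measure the spread between these libraries.

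Library depth ran from 1017787 to 2384186 counts in wild type, and a single gene took at most 5.31% of a library. Of the 9532 genes in the table, 8853 passed the filter on low counts and were tested. Levels are given as CPM, the counts scaled to a common library size, after TMM scaling, and a log2 fold change sets a balancer against the mean of the other 2. Markers of pharyngeal and body wall muscle, intestine and neurons were present in every library, as whole animals should give.

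Developmental stage differed within each balancer. The 6 yolk protein genes, which the adult hermaphrodite intestine transcribes at very high levels, were summed as CPM of all counts, without TMM scaling. They came to 1751, 14494, 104488 and 101383 CPM in the mIn1 libraries. They came to 17301, 21898 and 83791 CPM in the tmC20 libraries and to 68243, 1951, 3410 and 84582 CPM in the tmC5 libraries. In tmC5, a column headed day 3 thus lay at the level of the adults, and a column headed day 4 lay at the level of the youngest larvae. None of the tmC20 libraries was as low in yolk RNA as the youngest mIn1 and tmC5 libraries. The mutants were at 4635 and 6828 CPM with mIn1, at 20002 and 17183 CPM with tmC20 and at 17106 and 22497 CPM with tmC5. Stage was therefore not balanced over the balancers in wild type or in the mutants. Beyond fits with the labelled stage, the headed age or yolk RNA as a covariate, and fits of a single age, its part in the results that follow was not tested. In tmC5 the headed age did not follow yolk RNA, and a column headed day 3, labelled L4, held 68243 CPM. The tmC5 columns headed day 4 could not be tied to the adult or the L4 label. Fits by age or label could therefore not adjust for stage there.

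**Figure D1:**
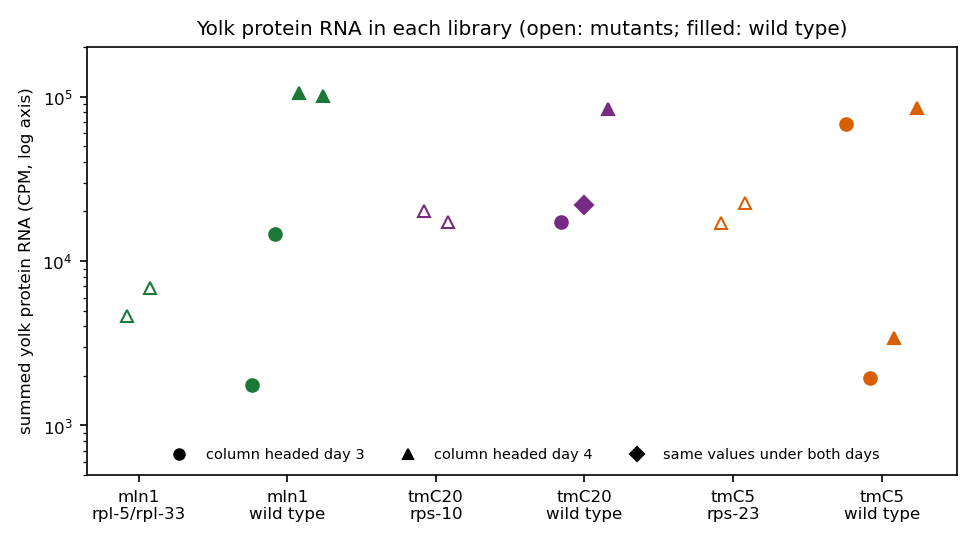
Summed CPM of the 6 yolk protein genes in each library, on a log axis, for mutants (open symbols) and wild type (filled symbols) of each balancer, with the age in the column heading as the symbol shape. The 5 wild-type libraries richest in yolk RNA lie between 68243 and 104488 CPM, and the lowest libraries, of mIn1 and tmC5, lie at 1751 to 3410 CPM.

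No gene passed the test in any of the 3 comparisons (0% of 8853 genes at an adjusted p of 0.05, edgeR quasi-likelihood test). At an unadjusted p of 0.05 the same test passed 266 genes with mIn1, 673 with tmC20 and 300 with tmC5. DESeq2 called 9 genes with mIn1, 53 with tmC20 and 3 with tmC5. Without the adult tmC20 library (headed day 4, replicate 1), the edgeR test called 155 of 9174 genes with tmC20, and 1456 genes did not overlap. Leaving out a library makes not overlapping easier, so 1456 is not comparable with the counts below. The genes described here are instead those whose levels did not overlap, being higher or lower in every library of a balancer than in all libraries of the other 2. This was decided after the absence of calls had been seen, and such genes are a description with no test of their own. An exact two-sided permutation test on a single gene could not go below p = 0.00606 for 4 against 7 libraries and p = 0.0121 for 3 against 8.

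For mIn1, 34 genes (0.384% of those tested) were higher in every library and 7 (0.0791%) were lower. For tmC20, 46 genes (0.52%) were higher and 105 (1.19%) lower, and for tmC5, 19 (0.215%) were higher and 28 (0.316%) lower. These counts are not comparable between balancers, since fewer libraries had to lie on 1 side for tmC20 (3 against 8) than for mIn1 and tmC5 (4 against 7). With libraries in random order, a gene would not overlap at a rate equal to the smallest p of the permutation test above. That rate is 0.00606 for 4 against 7 libraries and 0.0121 for 3 against 8. Counting both directions, 0.463% of genes did not overlap with mIn1 and 0.531% with tmC5. The mIn1 and tmC5 lists were thus no longer than random order would give. The tmC20 share, 1.71%, was above its rate, and that excess was not tested. The median log2 fold change was 0.93 for the genes higher in mIn1, -0.54 for those lower in mIn1, 0.62 and -1.07 for those of tmC20, and 0.46 and -1.11 for those of tmC5. Over all genes tested the medians were -0.02, 0.00 and 0.02.

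The gene with the widest gap in mIn1 was pes-10 (chromosome II), a gene of early embryos whose basal promoter is widely used in reporter constructs. It had 32.3, 34.1, 22.4 and 27.9 CPM in the mIn1 libraries, against 0, 0 and 5.09 CPM in tmC20 and 8.74, 0, 0 and 10.8 CPM in tmC5. Every mIn1 library was above every other library, at larval as at adult levels of yolk RNA. In the other balancers, pes-10 was counted in the 3 libraries richest in yolk RNA and was at 0 in the other 4. The log2 fold change was 3.23 ± 0.97 (SE; unadjusted p = 0.00706, adjusted p = 0.999, edgeR). pes-10 passed the filter on low counts only through its mIn1 libraries, so it was tested only because it was high there. In the mutants pes-10 fell under the filter, with 6 and 9 counts in the mIn1 libraries, against 0 and 2 in tmC20 and 0 and 0 in tmC5.

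F22B7.9 (chromosome III) had 144, 119, 90.6 and 79.3 CPM in the mIn1 libraries. Its level was 29.5, 38.7 and 8.73 CPM in tmC20 and 30.6, 46.7, 48.3 and 34.3 CPM in tmC5. The lowest mIn1 library was 1.63 times the highest of the others, after 1 CPM had been added to both. The log2 fold change was 1.76 ± 0.34 (adjusted p = 0.492). It passed the test with DESeq2 and with yolk RNA as a covariate (adjusted p = 0.0264). In the mutants F22B7.9 had 223 and 192 CPM with mIn1, against 16.9 and 25 CPM with tmC20 and 55.6 and 49.9 CPM with tmC5. There it rose by 2.64 ± 0.19 (log2, adjusted p = 2.52e-06), and all 6 mIn1 libraries of both classes were above all 11 others. The same held for K08D8.4, mdh-1 and cdr-7, which makes 4 of 9276 genes (0.0431%), and 0 genes were lower in this way. The GFP-marked form of mIn1 in common use carries an array of GFP reporters on the promoters of pes-10, myo-2 and F22B7.9. Whether these strains carry it is not given in the sources used here, and its part in these counts was not tested. myo-2, a pharyngeal myosin gene, did not stand apart, with 427, 567, 179 and 260 CPM in mIn1 against 146 to 539 CPM in the other balancers.

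The promoter windows of both genes are shown from 250 bases before to 50 bases after the annotated gene start (build WBcel235, minus strand, written 5′ to 3′). Which bases any such reporter carries is not given in the sources used here. Capitals mark GATAAG on either strand, a core that intestinal GATA factors bind. GATAAG was in 1460 of the 8837 promoter windows of tested genes. TGATAA was also searched on both strands, was in 29.8% of windows and had no match in either of these. pes-10 is at chrII:12847787-12848086 and F22B7.9 at chrIII:8653876-8654175.
pes-10: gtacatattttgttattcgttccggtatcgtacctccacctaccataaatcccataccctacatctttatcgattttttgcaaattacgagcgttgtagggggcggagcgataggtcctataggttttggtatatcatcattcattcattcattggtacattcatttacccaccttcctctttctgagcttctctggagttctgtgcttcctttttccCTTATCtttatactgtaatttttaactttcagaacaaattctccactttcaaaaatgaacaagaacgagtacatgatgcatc
F22B7.9: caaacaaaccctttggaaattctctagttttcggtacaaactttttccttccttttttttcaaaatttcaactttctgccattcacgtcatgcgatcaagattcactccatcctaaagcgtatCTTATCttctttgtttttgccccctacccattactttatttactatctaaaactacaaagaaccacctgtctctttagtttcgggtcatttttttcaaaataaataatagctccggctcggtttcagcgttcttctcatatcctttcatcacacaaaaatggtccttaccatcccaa
Each window holds 1 match, on the minus strand of the window as CTTATC.

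Among the other genes higher in mIn1, asns-2, an asparagine synthetase, had 278, 265, 254 and 197 CPM in the mIn1 libraries. Its range was 68.4 to 123 CPM in tmC20 and 70.7 to 144 CPM in tmC5. The groups were apart by a log2 fold change of 1.25 ± 0.25 (adjusted p = 0.492), and with yolk RNA as a covariate asns-2 passed (adjusted p = 0.0264). That fit called 10 genes higher (0.113%) and 1 lower (0.0113%) with mIn1, F22B7.9 and asns-2 being those among the 34. In the mutants it rose with mIn1 by 0.57 ± 0.16 (adjusted p = 0.0188). K08D8.4 had 38.9, 49.5, 122 and 93.5 CPM in mIn1, against 14.8 to 32 CPM in tmC20 and 19.9 to 29.5 CPM in tmC5. It rose in the mIn1 mutants by 1.17 ± 0.26 (adjusted p = 0.00537), to 45.2 and 35 CPM against 12.5 to 25.7 CPM with the other balancers. R12E2.11 had 127, 138, 145 and 126 CPM in mIn1, against 64.3 to 98.2 CPM in tmC20 and 67 to 87.9 CPM in tmC5, and rose in the mutants by 1.49 ± 0.16 (adjusted p = 4.83e-05).

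dod-24, a CUB-like domain gene of the bacterial pathogen response, had 23.1, 22.2, 21.6 and 19.2 CPM in mIn1 wild type. It had 4.39 to 10.2 CPM in tmC20 and 2.48 to 11.3 CPM in tmC5. The wild-type separation was not seen in the mutants, where dod-24 was at 12 and 4.86 CPM with mIn1, against 14.6 and 4.17 CPM with tmC20 and 19.3 and 15.1 CPM with tmC5. fat-7, a stearoyl-CoA desaturase, had 174, 187, 297 and 219 CPM in mIn1, against 21.2 to 140 CPM in tmC20 and 108 to 171 CPM in tmC5. cdr-7, of the cadmium-responsive family, had 25.3, 21.3, 13.3 and 18.6 CPM in mIn1, against 6.55 to 11.6 CPM in tmC20 and 4.55 to 12.9 CPM in tmC5. It rose in the mIn1 mutants by 1.52 ± 0.42 (adjusted p = 0.018). The 7 genes lower in mIn1 included the beta-tubulin gene tbb-2, at 864 to 941 CPM against 1016 to 1171 CPM in tmC20 and 980 to 1111 CPM in tmC5. They also included umps-1, which encodes UMP synthase, at 68.1 to 84.4 CPM against 88.8 to 196 CPM in tmC20 and 91.4 to 116 CPM in tmC5. None of the 7 fell in the mutants by the test.

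**Figure D2:**
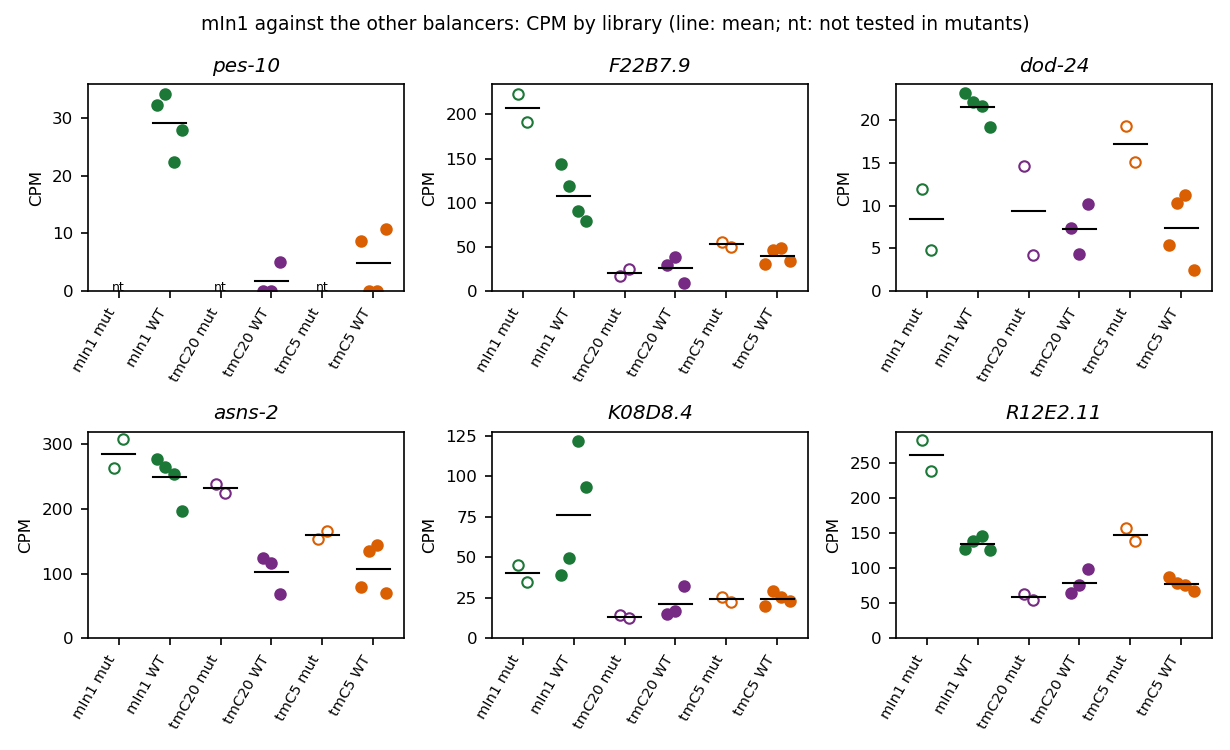
CPM of 6 genes in each library (linear axes from 0, line at the mean), mIn1 to the left of tmC20 and tmC5, with mutants (mut, open circles) left of wild type (WT, filled circles). pes-10, which was not tested in mutants (nt), and dod-24 stand apart in wild type, while F22B7.9 and K08D8.4 are higher with mIn1 in all 6 of its libraries.

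Among the genes lower with tmC20, mans-3 (chromosome X), named for the alpha-mannosidases of glycan trimming, had 0, 1 and 0 counts in the 3 tmC20 libraries. It had 13 to 52 counts in the mIn1 and 15 to 42 counts in the tmC5 libraries. In CPM the other libraries were 52.8 times higher (95% exact counting interval 9.37 to 2100). In the mutants mans-3 had 2 and 1 counts with tmC20, against 11 and 21 with mIn1 and 8 and 15 with tmC5, which is 14.8 times higher without tmC20 (4.81 to 74.0). There the gene passed the test (adjusted p = 0.00232), and all 5 tmC20 libraries of both classes were below all 12 others. These intervals cover counting error alone.

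Of the fixed lists of defence genes, 1 of 9 tested bacterial pathogen response genes (irg-2), 1 of 5 cuticle damage genes (fipr-22) and 0 of 2 intracellular pathogen response genes did not overlap with tmC20. Over all genes the share was 1.71%, and most members of these lists did overlap. sta-2, described below, was named by the size of its gap and was not on these lists. irg-2, an infection response gene, had 4.22, 4.39 and 8 CPM in tmC20 wild type, against 47.7 to 60.6 CPM in mIn1 and 13.6 to 52.3 CPM in tmC5. In the tmC20 mutants its log2 level fell by 2.62 (standard error 0.36, adjusted p = 0.000291). sta-2, a STAT-like factor of the epidermal response to wounding and fungal infection, had 4.22, 2.19 and 5.82 CPM against 11.4 to 25.8 CPM in mIn1 and 20.4 to 27.4 CPM in tmC5. fipr-22, of the fungus-induced peptide family, had 5.27, 11 and 5.09 CPM against 20.8 to 54.1 CPM in mIn1 and 31 to 35.9 CPM in tmC5. For irg-2, sta-2 and fipr-22, each tmC20 library was below every other wild-type library. In the mutants fipr-22 fell by 0.76 (SE 0.24, adjusted p = 0.0436), while sta-2 had a log2 fold change of -0.90 (adjusted p = 0.151).

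A set of 20 genes was lower with tmC20 in all 5 libraries of wild type and mutants than in the 12 others, of 9276 genes so compared (0.216%), and 2 were higher (0.0216%). odc-1, ornithine decarboxylase of polyamine synthesis, was at 74.9, 59.2 and 58.9 CPM in tmC20 wild type, against 130 to 187 CPM in mIn1 and 106 to 184 CPM in tmC5. In the mutants it was at 58.4 and 70 CPM with tmC20, against 221 and 167 CPM with mIn1 and 198 and 189 CPM with tmC5, and fell by 1.59 (SE 0.19, adjusted p = 9.11e-05). The tmC20 libraries were the lowest in both classes. F17C11.11 had 112, 105 and 116 CPM in tmC20 wild type, against 231 to 386 CPM in mIn1 and 161 to 335 CPM in tmC5, and fell by 2.00 in the mutants (SE 0.22, adjusted p = 4.59e-05). pqm-1, a zinc finger transcription factor of stress and lipid metabolism, had 39.0, 48.3 and 29.1 CPM in tmC20 wild type, against 96.6 to 141 CPM in mIn1 and 52.4 to 126 CPM in tmC5. It fell by 1.44 in the mutants (SE 0.19, adjusted p = 0.000164). The 20 also held the UDP-galactose epimerase gene gale-1, the acid phosphatase gene pho-9, the acyl-CoA synthetase gene acs-11, the P450 gene cyp-13A5 and the endosomal GTPase gene rab-11.1.

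Some genes lower with tmC20 lie near each other, as do genes of opposite direction such as F21F3.2 and F21F3.6. How often genes this close both do not overlap was not compared with all genes. eas-1, acs-11, F41C3.2 and F26G1.2 lie between bases 4740412 and 4764180 of chromosome II (WBcel235), and all 4 were lower in every tmC20 library of wild type and mutants. For eas-1 the mutants were barely apart, at 5.47 and 5.10 CPM with tmC20 against 5.53 to 6.81 CPM with the other balancers. F26G1.2 had 10.55, 5.12 and 5.82 CPM in tmC20 wild type, against 12.5 to 23.9 CPM in mIn1 and 21.9 to 41.9 CPM in tmC5. In the mutants F26G1.2 had a log2 fold change of -2.405 (adjusted p = 0.000242) and F41C3.2 fell by 2.05 (adjusted p = 1.36e-05), while eas-1 and acs-11 did not pass (adjusted p = 0.756 for eas-1 and 0.159 for acs-11). On chromosome V, Y58A7A.3 and Y58A7A.5, between bases 5077854 and 5086969, were at 20.4 to 30 and 8.77 to 22.6 CPM in tmC20. In the other wild-type libraries Y58A7A.3 had 51.4 to 155 CPM and Y58A7A.5 had 39.3 to 120 CPM. Neither region is on chromosome I, which tmC20 rearranges.

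Of the 46 genes higher with tmC20, ltah-1.2, a homolog of leukotriene A4 hydrolase, had 154, 124 and 67 CPM, against 12.5 to 40.1 CPM in mIn1 and 13.6 to 36 CPM in tmC5. It was the member of this list that also did not overlap over all 17 libraries, at 64.3 and 55.7 CPM in the tmC20 mutants against 32.3 and 42.8 CPM with mIn1 and 29.2 and 32.7 CPM with tmC5. There it rose by 0.81 ± 0.20 (adjusted p = 0.0124). C14F11.4 had 274, 246 and 88.8 CPM in tmC20 wild type, against 32.3 to 66.5 CPM in mIn1 and 19.7 to 57.3 CPM in tmC5, and rose in the mutants by 0.84 ± 0.17 (adjusted p = 0.00358). T16G1.7 had 16.9, 14.6 and 10.9 CPM, against 0.831 to 4.26 CPM in mIn1 and 2.48 to 5.14 CPM in tmC5, and rose in the mutants by 0.90 ± 0.24 (adjusted p = 0.0171). With yolk RNA as a covariate, a fit added after the data had been seen, tmC20 gave 202 higher (2.28%) and 59 lower calls (0.666%). These calls included 11 of the 46 genes higher and 45 of the 105 genes lower. With the square of yolk RNA added, the balance of directions turned to 10 higher (0.113%) and 54 lower calls (0.61%), which included 1 of the 46, ltah-1.2, and 31 of the 105.

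**Figure D3:**
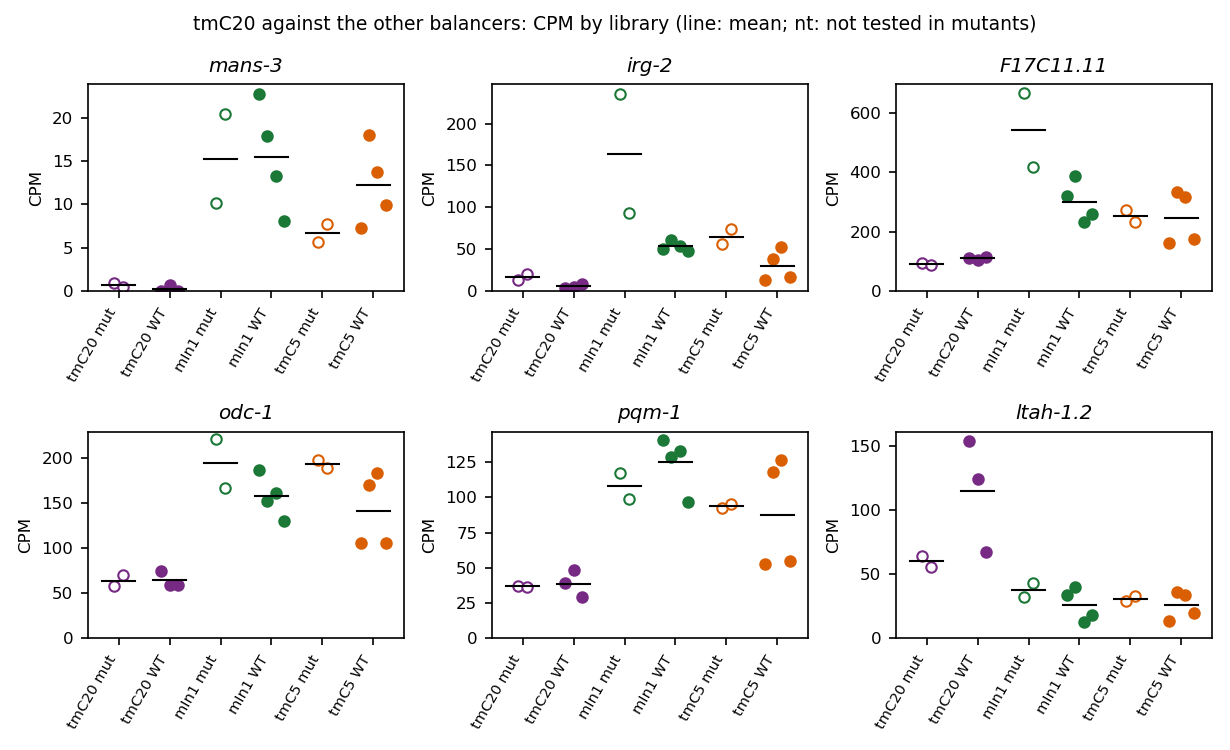
CPM of 6 genes in each library (linear axes from 0, line at the mean), tmC20 to the left of mIn1 and tmC5, mutants (mut, open circles) left of wild type (WT, filled circles). mans-3, F17C11.11, odc-1 and pqm-1 are lower, and ltah-1.2 higher, in all 5 tmC20 libraries than in the 12 others.

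With tmC5, R03A10.5 (chromosome X) had 0, 9, 2 and 0 counts in the tmC5 libraries, or 0, 3.85, 1.61 and 0 CPM, against 8.53 to 15.5 CPM in mIn1 and 10.2 to 28.5 CPM in tmC20. The log2 fold change was -3.38 ± 0.83 (adjusted p = 1.00). In the mutants it had 1 and 1 counts with tmC5, 2 and 4 with mIn1 and 43 and 38 with tmC20. The libraries without tmC5 were together 22.5 times higher (95% exact counting interval 6.03 to 188), and R03A10.5 passed there (adjusted p = 0.0416). The low level was shared by the mIn1 mutants, unlike in wild type. nhr-17, a nuclear hormone receptor, was at 12.62, 17.1, 17.7 and 7.86 CPM in tmC5 wild type, against 36.6 to 93.0 CPM in mIn1 and 23.2 to 43.7 CPM in tmC20. It was at 59.2 and 67.6 CPM in the tmC5 mutants, against 236 and 179 CPM with mIn1 and 11.4 and 6.49 CPM with tmC20, so the wild-type order did not recur.

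cnnm-3, of the magnesium transporter family, and cth-2, a cystathionine gamma-lyase of the transsulfuration pathway, were lower with tmC5 in all 6 libraries of wild type and mutants. cnnm-3 had 5.82, 7.28, 8.85 and 7.44 CPM in tmC5 wild type, against 13.6 to 18.3 CPM in mIn1 and 11.6 to 29.2 CPM in tmC20. cth-2 had 104.4, 107, 126 and 103 CPM, against 141 to 281 CPM in mIn1 and 141.9 to 236 CPM in tmC20. Neither fell in the mutants by the test (adjusted p = 0.352 for cnnm-3 and 0.214 for cth-2). sams-5, an S-adenosylmethionine synthase, was at 10.7, 14.1, 13.7 and 7.03 CPM, against 14.8 to 30.7 CPM in mIn1 and 23.3 to 45.4 CPM in tmC20. Among the genes higher with tmC5, Y41G9A.10 had 20.4, 16.3, 16.099 and 23.2 CPM, against 1.86 to 13.6 CPM in mIn1 and 2.91 to 6.33 CPM in tmC20. The insulin receptor gene daf-2 had 155, 153, 137 and 175 CPM, against 82.3 to 131 CPM in mIn1 and 58.0 to 136 CPM in tmC20. grk-1, a G protein-coupled receptor kinase, was the 1 gene (0.0108%) higher over all 17 libraries, at 31.5 to 33.8 CPM in tmC5 wild type against 20.5 to 31.4 CPM elsewhere.

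**Figure D4:**
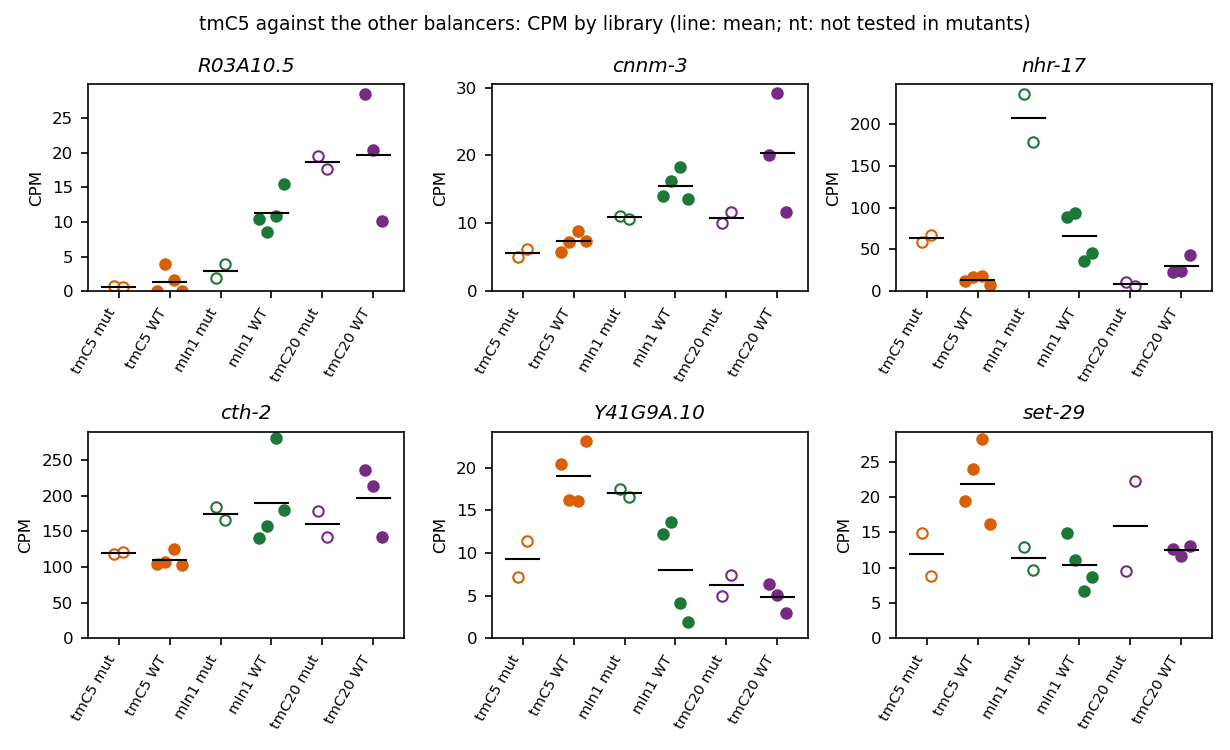
CPM of 6 genes in each library (linear axes from 0, line at the mean), tmC5 to the left of mIn1 and tmC20, mutants (mut, open circles) left of wild type (WT, filled circles). cnnm-3 and cth-2 are lower in all 6 tmC5 libraries than elsewhere, while nhr-17, lower with tmC5 in wild type, and Y41G9A.10, higher there, overlap the other balancers in the mutants.

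Whether the wild-type differences recurred was read in the mutants, which share no library with the controls. Mutant genotype and balancer cannot be told apart there, since each balancer came with its own mutation, and the mIn1 mutants had less yolk RNA than the others. The mutant fit tested 8846 genes and called 1315 higher (14.9%) and 1174 lower (13.3%) with mIn1. It called 890 higher (10.1%) and 1032 lower (11.7%) with tmC20 and 123 higher (1.39%) and 52 lower (0.588%) with tmC5. These shares are the background against which the counts that follow stand.

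Recurrence was read as the share with the same sign, the share called and the share again not overlapping. All 3 shares were above those of all genes for the genes higher with mIn1, for both tmC20 lists and for the genes lower with tmC5. For the genes lower with mIn1 only the same-sign share was above, and for those higher with tmC5 only the share not overlapping. Of 32 genes higher with mIn1 that were tested in the mutants, 25 (78.1%) had the same sign, against 50.3% of all genes, and 15 (46.9%, against 14.9%) were called higher. Of the 7 lower, 5 (71.4%, against 49.7%) had the same sign and 0 were called, against 1174 lower calls over all genes. Of the genes lower with tmC20, 1 was not tested in the mutants, and of the others 82 (78.8%) had the same sign, against 48.1% of all genes, and 37 (35.6%) were called lower. Of the 46 higher, 34 (73.9%, against 51.9%) had the same sign and 8 (17.4%) were called. The median mutant log2 fold change was 0.56 for the genes higher with mIn1 and -0.54 for those lower with tmC20, against 0.01 and 0.03 over all genes.

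For tmC5, 8 of 18 genes higher (44.4%, against 55% of all genes) and 15 of 27 lower (55.6%, against 45%) had the same sign in the mutants. R03A10.5 was the 1 gene called in the same direction (3.7% of those lower, against 0.588%), and 0 of the 18 higher genes were called, against 1.39%. Counted by levels in the mutants, 16 of 32 genes (50%) higher with mIn1 were again above all other libraries, against 21.5% of all genes, and 1 of the 7 lower (14.3%, against 23.7%) was again below them. For the genes lower with tmC20 it was 47 (45.2%, against 19%), for those higher with tmC20 12 of 46 (26.1%, against 16.9%), and for tmC5 3 of 18 higher (16.7%, against 5.36%) and 6 of 27 lower (22.2%, against 6.1%). Genes are not independent replicates, and no test was made of these shares. With all 17 libraries in 1 fit, the genes called in the same direction in the mutants numbered 4 for mIn1, 7 for tmC20 and 0 for tmC5, against 15, 45 and 1 in the separate fits. That fit made fewer mutant calls over all 9276 genes as well, with 88 higher (0.949%) and 18 lower (0.194%) for mIn1, 18 higher (0.194%) and 40 lower (0.431%) for tmC20, and 0 for tmC5 (0%).

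**Figure D5:**
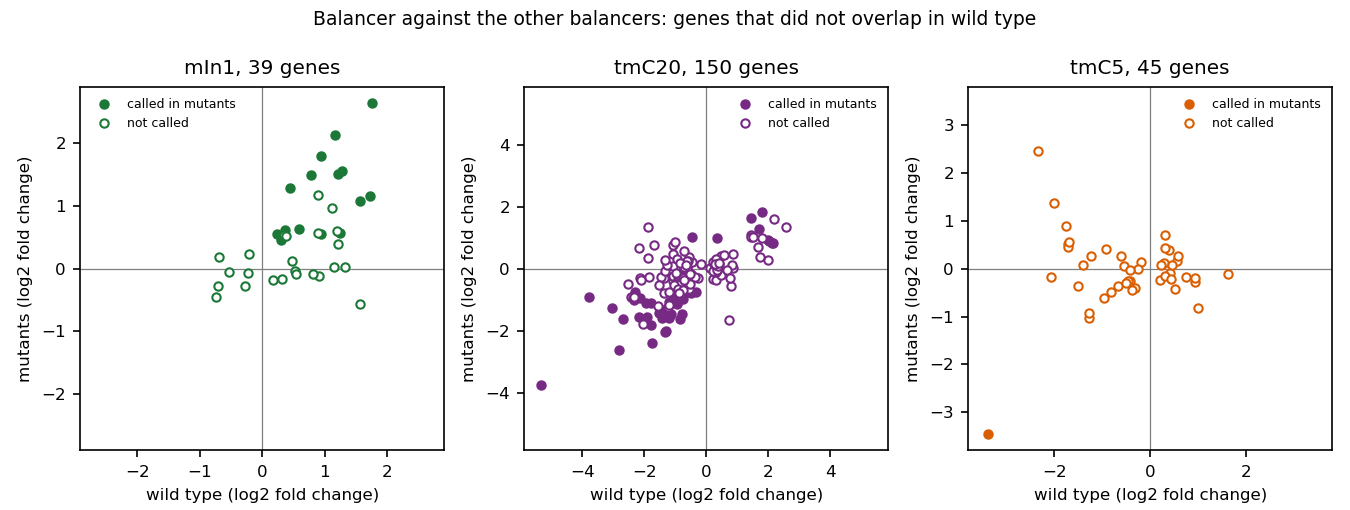
Log2 fold change of each balancer against the other 2 in wild type (horizontal) and in the mutants (vertical), for genes that did not overlap in wild type and were tested in the mutants, with filled points for genes called in the mutants. For mIn1, 25 of the 32 genes on the right lie above 0, and for tmC20, 82 genes on the left lie below 0, while the tmC5 genes lie on both sides.

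The difference between the mutant and the wild-type contrast was itself tested in a fit of all 17 libraries. It was called for 26 of 9276 genes with tmC20 and for 0 genes with mIn1 and tmC5 (edgeR, 737 and 360 genes at an unadjusted p of 0.05). smd-1, S-adenosylmethionine decarboxylase of polyamine synthesis, was the gene among these 26 that had not overlapped in wild type. In the mutants it had 63.4 and 63.5 CPM with tmC20, against 30.4 and 37 CPM with mIn1 and 28.5 and 29.6 CPM with tmC5. In wild type the order was opposite, with 91.8, 90.7 and 77.9 CPM in tmC20, against 96.6 to 159 CPM in mIn1 and 93.2 to 115 CPM in tmC5. The 2 contrasts differed by 1.49 (log2, adjusted p = 0.0445).

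The genes that did not overlap were spread over the chromosomes and were not gathered on the rearranged one. For mIn1, 9 of 1488 genes of chromosome II (0.605%) did not overlap, against 0.463% of all genes. For tmC20 it was 20 of 1668 genes of chromosome I (1.2%, against 1.71%), and for tmC5 5 of 1537 genes of chromosome IV (0.325%, against 0.531%). The largest share was on chromosome III for mIn1 (12 of 1611 genes, 0.745%) and on chromosome V for tmC20 (35 of 1484, 2.36%). For tmC5 it was on chromosome X (10 of 1049, 0.953%), although chromosome I held more genes (11 of 1668, 0.659%).

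In wild type, the genes marked on the balancers did not separate them. dpy-5, a cuticle collagen gene of chromosome I mutated on tmC20, had 4344, 3756 and 47.3 CPM in tmC20, against 11.2 to 2249 CPM in mIn1 and 86.8 to 3753 CPM in tmC5, low in each library rich in yolk RNA. unc-14, a neuronal gene of chromosome I that carries the tmC20 insertion, had 49.6, 38 and 29.1 CPM in tmC20, against 31.6 to 51.2 CPM in mIn1 and 15.5 to 53.1 CPM in tmC5. F36H1.3, the insertion site of tmC5 on chromosome IV, had 1.46, 1.71, 2.41 and 3.31 CPM in tmC5, against 2.18 to 9.38 CPM in mIn1 and 26.4, 27.8 and 2.91 CPM in tmC20. It was low in all 4 tmC5 libraries but overlapped both other balancers. dpy-10, a collagen gene of chromosome II, had 121, 64.8, 0 and 1.86 CPM in mIn1, against 6.33 to 21.2 CPM in tmC20 and 4.37 to 158 CPM in tmC5. In the mutants, where genotype and balancer cannot be told apart, dpy-5 was called lower with tmC20 (log2 fold change -0.77, adjusted p = 0.00228, edgeR). dpy-10 was called higher with mIn1 (1.45, adjusted p = 0.00133) and lower with tmC20 (-2.27, adjusted p = 0.000142). F36H1.3 was called lower with mIn1 (-2.22, adjusted p = 0.0192) but not with tmC5 (adjusted p = 0.410).

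Of 128 tested members of 17 lists of tissue, stage and stress genes, 0 were called in any comparison, as over all genes. For mIn1, 3 of the 128 did not overlap (pes-10, dod-24 and fat-7, all higher), for tmC20 4 (msp-152 and msp-45 higher, fipr-22 and irg-2 lower), and for tmC5 0. Over all genes tested, 0.463% did not overlap with mIn1, 1.71% with tmC20 and 0.531% with tmC5. The sperm list, mostly major sperm protein genes, had a median log2 fold change of 1.19 over its 31 tested members with tmC20, against 0.00 over all genes, -0.04 with mIn1 and -1.08 with tmC5. After TMM scaling, summed sperm RNA was 1370, 1179 and 617 CPM in tmC20, against 134, 342, 991 and 869 CPM in mIn1 and 476, 312, 314 and 355 CPM in tmC5. In tmC20 it was highest in the larval libraries, and in mIn1 in the adult ones, and the groups overlapped. Major sperm protein genes are near-identical copies, so the division of reads among them is uncertain. In whole animals, fewer sperm and less RNA per sperm cannot be told apart.

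In the Ribo-seq table single genes had too few counts to compare, so the counts of each list were summed. The genes lower with tmC20 in RNA held 61 of 10282 Ribo-seq counts in the 4 tmC20 wild-type libraries (0.593%, libraries from 0.455% to 0.722%). They held 174 of 16068 counts in mIn1 (1.08%, from 0.992% to 1.24%) and 112 of 9425 counts in tmC5 (1.19%, from 0.933% to 1.37%), so these did not overlap. In the tmC20 mutants the share was 0.796% (0.763% to 0.823%), against 1.16% (0.773% to 1.32%) with mIn1 and 1.00% (0.983% to 1.05%) with tmC5, and the ranges overlapped with mIn1. The genes higher with tmC20 held 1.00% in tmC20 wild type (0.463% to 1.27%), against 0.579% (0.505% to 0.794%) in mIn1 and 0.552% (0.287% to 0.609%) in tmC5, and the ranges overlapped. The genes higher with mIn1 held 0.747% in mIn1 wild type (0.483% to 0.967%), against 0.613% (0.466% to 1.3%) in tmC20 and 0.668% (0.547% to 0.932%) in tmC5, with overlapping ranges. The lists of tmC5 and the genes lower with mIn1 held at most 63 counts in any group. By the study's methods each lysate was divided between the assays, but the headings do not show which Ribo-seq and RNA libraries share one, so these sums may not be from separate animals.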

How the data were processed

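RNA-seq and Ribo-seq libraries were made from lysates of whole animals, each lysate being split for the assays by the study's methods, though the headings do not tie the deposited libraries of the assays to each other. The authors deposited raw counts per gene for both, made with RiboFlow against WBcel235, and these were used as deposited. Of the 20 RNA columns 17 were distinct, and identical columns were used once. Headings repeat or match several labels, so columns were assigned to groups and not to single samples. The labels' mc6 was read as mIn1, the name in the study's methods. Of the Ribo-seq columns, 6 that matched no label were not used.

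Genes low in counts were removed with filterByExpr by balancer, and counts were TMM scaled and fitted with the edgeR (4.0.16, R 4.3.3) quasi-likelihood test with no covariate, each balancer against the mean of the other 2, with Benjamini-Hochberg adjustment at 0.05. The 11 wild-type and the 6 mutant libraries were fitted and scaled separately, so their CPM are not on 1 scale, and the difference between the contrasts came from a fit of all 17. Standard errors were derived from the fold change and its F statistic. DESeq2 (1.42.0), other scalings, filters, stage and age terms, single ages, a replicate block and each library left out were tried as alternatives. The scripts were tested on simulated data.

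The members and lists were chosen with earlier results of these data known. The rule for named genes took the genes marked on the balancers, the members of fixed lists, genes called in wild type and mutants, and up to 10 called genes in each direction. As no gene was called, genes were instead named from those that did not overlap, by the size of the gap or over all 17 libraries, after their values had been seen. sams-5 and daf-2, described for tmC5, did not overlap in wild type but were named outside these rules. smd-1 was named from the test of the difference between the contrasts. Fits with yolk RNA as a covariate were also added then. Whether counting used strand is not given in the sources used here, so genes that overlap others are uncertain. Counting intervals are exact at 95%.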

Additional observations from a re-analysis of the deposited data

Results flagged for a closer look

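In wild type, 7 of 168 groups of 4 libraries had a library beyond Dixon's 95% critical value, and chance gives about 1 in 20. In mIn1 these were clec-70, with a library at 11.2 CPM, mdh-1 at 777 CPM, F21F3.2 at 4.26 CPM and M01H9.3 at 93.9 CPM. In tmC5 they were mlc-7 at 8.27 CPM, C34D10.1 at 14.6 CPM and C29G2.6 at 1.61 CPM.

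For tmC20, 26 genes differed between mutants and wild type in how far they stood from the other balancers, by the test of that difference. smd-1 was the 1 of them that had not overlapped in wild type, and its tmC20 contrast was 1.49 higher on the log2 scale in mutants than in wild type (adjusted p = 0.0445, edgeR).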

How the results depend on the processing

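No gene was called in the fits with other scalings, without a filter, with a minimum of 10 counts, with age or on day 4 alone. In tmC5 the headed ages did not follow yolk RNA, so the fits by age could not adjust for stage there. The age fit also left out the tmC20 library deposited under both ages, and the stage fit the tmC5 libraries headed day 4. DESeq2 called 9 genes for mIn1, 53 for tmC20 and 3 for tmC5, of which 4, 37 and 2 did so in every library, and 4 and 21 recurred for mIn1 and tmC20. With yolk RNA as a covariate mIn1 gave 11, 2 and 2 by the same 3 counts and tmC20 gave 261, 56 and 32. With its square added mIn1 gave 136, 10 and 7, tmC20 gave 64 (10 higher, 54 lower), 32 and 23, and tmC5 gave 26 called and 2 in every library. For tmC20 the stage in the label gave 9, 1 and 1, day 3 alone 2 called and 2 in every library, and all 17 libraries in 1 fit 18, 17 and 2.

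Genes that did not overlap numbered 41 for mIn1, 151 for tmC20 and 47 for tmC5, of 8853 tested. Where each library had to hold 10 counts, only 5803 genes were tested, and 25, 86 and 24 did not overlap. In the main fits 15, 45 and 1 of the genes that did not overlap were called in the mutants, where 8846 genes were tested. The counts were 6, 28 and 0 under that minimum, with 6364 genes tested in the mutants, and 4, 7 and 0 with 17 libraries in 1 fit. For tmC5 it was 2 with DESeq2-style size factors, 2 with library totals and 0 with DESeq2.

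With each library left out, calls ran from 0 to 0 for mIn1 and tmC5 and from 0 to 155 for tmC20, the same in every library, and recurrence from 0 to 0, 0 to 0 and 0 to 71. The 155 came without the adult tmC20 library, headed day 4 and replicate 1, and that fit also gave 1456 genes that did not overlap. That count ran from 49 to 157 for mIn1, 161 to 1456 for tmC20 and 55 to 85 for tmC5, and those called in the mutants from 7 to 57, 18 to 375 and 0 to 4. Leaving out a wild-type library makes not overlapping easier. Counts above those of the main fit were thus largely fixed in advance and do not measure how far the result rests on that library.

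The replicate block, fitted on the wild-type libraries with unique headings, called 0 genes in each comparison, and the numbers do not pair the samples (same-number correlations from -0.809 to 0.722). None of the 79 named results that did not overlap changed sign in any fit that tested it. As they were chosen for not overlapping, fits that left out or rescaled libraries could hardly have turned a sign. Their constant sign is thus no measure of stability. The cause of the differences between balancers was not tested. Depth limits the low genes, such as mans-3 and R03A10.5.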
